A study of Homo sapiens with 14 samples.

Results

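The genes described here sense, bind, edit or signal from double-stranded RNA (dsRNA). They were chosen by name, with earlier results of these data known. The 29 gene symbols were looked up in a table of N6-methyladenosine (m6A) sites, and 27 of the 29 symbols had sites. RIG-I stands in the table under its older symbol DDX58, so the symbol RIGI had none, and ZBP1 had none. Together they held 1084 of the 407343 adenosines listed, in 27 of 13744 genes. The assay was GLORI, a chemical treatment that deaminates plain adenosine, which sequencing then reports as G, and leaves m6A to be reported as A. Levels are given as the percentage of A in all reads showing A or G there. Adenosine that ADAR enzymes have turned to inosine is also read as G, so editing itself was not measured. METTL3, the enzyme that writes most m6A in messenger RNA, is the target whose inhibition the series studies.

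Polyadenylated RNA came from CAOV3, an ovarian carcinoma line, after 24 h with 1 uM STM3675, and from 6 lines after 24 h with the solvent DMSO. Those were CAOV3, COV644, EFO21 and SKOV3 (labelled ovarian), A549 (lung carcinoma) and OE21 (oesophageal). Each group had 2 libraries, 14 in all. STM3675 was thus tested in 1 line, at 1 dose and 1 time. The labels do not say whether the libraries of a group came from separate cultures, so p-values measure the spread between these libraries, which may be technical. For single sites that spread was pooled over all sites, wholly in CAOV3 and nearly so among lines. The p-value of a site thus rests on its read counts and the pooled spread, not on its own spread.

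Long dsRNA is a sign of viral infection or of unedited repeats of the cell's own transcripts. MDA5 (IFIH1) and RIG-I (DDX58) recognise forms of dsRNA in the cytoplasm and signal through MAVS. TLR3 recognises dsRNA in endosomes and signals through TICAM1. Both routes reach the kinases TBK1 and IKBKE and the transcription factors IRF3 and IRF7, which switch on interferon genes. PKR (EIF2AK2) and the oligoadenylate synthetases (OAS1, OAS2, OAS3) bind dsRNA and stop translation or activate RNase L, and ADAR edits adenosines in dsRNA so that it is no longer recognised. Interferon in turn raises the transcripts of many of these genes.

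The sites below were chosen among sites in the motif DRACH, explained below the list, that were tested in CAOV3. They were the most methylated such sites of their gene in the 5 lines that were not given STM3675. Their mean was 90% or more over those DMSO libraries. Each is named with its chromosome and position on GRCh38, strand and exon, followed by the 5 bases of the deposited table from 5′ to 3′. The capital marks the adenosine measured.
TLR3, chromosome 4, 186083795, plus strand, internal exon 4: gaAct
STAU1, chromosome 20, 49114698, minus strand, last exon 14: ggAct
OASL, chromosome 12, 121020652, minus strand, last exon 6: ggAct
DDX58, chromosome 9, 32457171, minus strand, last exon 18: ggAct
ADARB1, chromosome 21, 45226244, plus strand, last exon 11: gaAct
TRIM25, chromosome 17, 56891776, minus strand, last exon 9: ggAct
MAVS, chromosome 20, 3873754, plus strand, last exon 7: gaAct
TICAM1, chromosome 19, 4816927, minus strand, last exon 2: agAct
TRAF3, chromosome 14, 102905716, plus strand, last exon 12: ggAca
ADAR, chromosome 1, 154601299, minus strand, internal exon 2: tgAct
RNF135, chromosome 17, 30998926, plus strand, last exon 5: ggAct
DRACH is the motif that METTL3 methylates (D is A, G or U, R is A or G, H is A, C or U). Only DRACH sites were eligible, so all 11 lie in it by choice. Of the 11, 9 lie in the last exon.

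Libraries held 14047302 to 28663588 reads over the listed sites, and the median site had 16 to 32 reads. The dsRNA genes took 97923 and 78899 of those reads in the STM3675 libraries, against 44847 and 40671 in the CAOV3 DMSO libraries. Sites outside DRACH, which METTL3 does not favour, measure mainly unconverted adenosine. Among such sites with 20 reads in all 12 DMSO libraries, their median level was 4.27% in COV644 and in OE21, against 10.5% to 12.7% in the other 4 lines, and these differences bear on the comparison of lines below. Read coverage of marker genes was set against the labels. The squamous markers KRT5, KRT14, TP63 and DSG3 were highest in OE21, at 4076, 178, 290 and 170 CPM. CPM are counts per 1e+06 reads at listed sites of genes, with each library's size adjusted by edgeR's TMM factors. PAX8, of the Muellerian lineage, reached 80.2 CPM in CAOV3, 22.5 in COV644, 245 in EFO21 and 362 in SKOV3, against 2.89 in A549 and 22.8 in OE21. WT1, a marker of serous ovarian tumours, was at 0.0267 to 1.73 CPM in the 4 ovarian lines, and the endothelial genes PECAM1 and CDH5 reached 520 and 391 CPM in EFO21. PTPRC and CD3E of leukocytes had no listed site.

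STM3675 lowered the methylation of most of these transcripts in CAOV3. Sites were tested with 20 or more reads in each of the 4 CAOV3 libraries, by a quasi-binomial model of A and G reads over all sites with adjusted p under 0.05. Of 209 DRACH sites tested in the dsRNA genes, 144 fell (68.9%) and 0 rose, where 73.9% of all DRACH sites fell. Outside DRACH 26 of 327 fell (7.95%), where 7.87% of all such sites fell. Over both kinds 170 of 536 fell, where 35.2% of all sites did. The shares were thus near those of the transcriptome. The mean level of the 209 DRACH sites was 11.1% and 10.8% with STM3675, against 42.9% and 45.0% with DMSO. The groups did not overlap, at 10.97% ± 0.225 with STM3675 and 44.0% ± 1.48 with DMSO (SD, n = 2 each). Its exact permutation test gave p = 0.333, two-sided, the smallest that 2 against 2 libraries allow. Since a site is listed only where a DMSO library reached 25%, DMSO levels of weak sites are raised by that choice. Of the 183 member DRACH sites that reached it in a line other than CAOV3, 135 fell, where 76.6% of all such sites fell.

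Summed over DRACH sites, 20 of 25 genes fell and 0 rose, where 91.1% of all genes so tested fell and 0.0294% rose. The median gene was at 10.1% with STM3675 and 39.1% with DMSO, against 9.45% and 44.5% over all genes. Over all tested sites the median with STM3675 was 9.23% in DRACH and 9.20% outside it, where mainly unconverted adenosine is measured. Levels near that value with STM3675 thus cannot be told apart from unconverted adenosine. The genes that did not pass were DHX9, IRF7, PRKRA, TBK1 and TRAF6, each with 1 to 3 tested DRACH sites. IKBKE and NLRP1 had no DRACH site with enough reads in CAOV3.

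All 4 sensors tested fell. TLR3, the endosomal receptor, had 14.3% and 18.7% with STM3675 against 57.4% and 63.0% with DMSO over 6 sites (adjusted p = 6.6e-10). DDX58 had 12.8% and 7.47% with STM3675 against 44.8% and 50.2% with DMSO over 7 sites (adjusted p = 1.1e-09). IFIH1, the MDA5 gene, had 5.24% and 9.30% with STM3675 against 31.8% and 36.1% with DMSO over 4 sites (adjusted p = 8.3e-07). In these 3 genes the groups lay far apart, with no STM3675 library above 18.7% and no DMSO library under 31.8%. DHX58, the LGP2 gene that modulates MDA5, had 9.02% and 4.11% with STM3675 against 14.6% and 20.6% with DMSO over 2 sites (adjusted p = 0.045). Its call was lost without CAOV3 DMSO replicate 2, without STM3675 replicate 1 and without STM3675 replicate 2, with differences of -8.07, -13.5 and -8.60 percentage points.

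PKR and the oligoadenylate synthetase family fell as well, 5 of 5 genes, with DMSO levels that varied among them. OASL, a catalytically inactive relative that boosts RIG-I, had 7.83% and 8.71% with STM3675 against 57.2% and 60.6% with DMSO, and all 5 of its tested sites fell (adjusted p = 8.2e-17 for the gene). OAS1 had 5.66% and 7.67% with STM3675 against 38.2% and 40.0% with DMSO (adjusted p = 7.9e-09). In OAS1 1 site of 4 passed, 112919621 on chromosome 12 in last exon 6, at 7.51% ± 2.72 with STM3675 and 87.4% ± 0.188 with DMSO (SD, n = 2 each). OAS3, the family member with the longest protein, was the least methylated of the family in DMSO, at 8.43% and 7.73% with STM3675 and 23.9% and 25.5% with DMSO over 18 sites (adjusted p = 8e-12). OAS2 rested on 1 DRACH site of 23 to 156 reads, at 8.33% and 11.4% with STM3675 and 39.1% and 21.7% with DMSO (adjusted p = 0.017), and its call was lost without STM3675 replicate 1 (difference -19.0 percentage points). EIF2AK2 had 5.49% and 5.58% with STM3675 against 28.7% and 29.4% with DMSO (adjusted p = 4.2e-14).

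The editors carried many sites and fell broadly. ADAR, the ADAR1 gene, had 7.89% and 7.72% with STM3675 against 42.9% and 46.6% with DMSO over 26 sites, of which 20 fell (adjusted p = 5.5e-20). Internal exon 2 of ADAR, 1586 bases long, held 14 of those sites, and 12 of the 14 fell. ADARB1, the ADAR2 gene, had 14.1% and 12.6% with STM3675 against 52.8% and 56.6% with DMSO over 21 sites, of which 18 fell (adjusted p = 8.6e-15). Internal exon 4 of ADARB1, 935 bases long, held 8 of them and all 8 fell.

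Of the other dsRNA-binding proteins 3 of 5 fell. TARBP2, a Dicer partner that also restrains PKR, had 11.3% and 10.6% with STM3675 against 75.7% and 72.3% with DMSO, and its 4 sites all fell (adjusted p = 7.5e-17). STAU1, which binds dsRNA in messenger RNAs, had 10.2% and 9.86% with STM3675 against 40.3% and 45.3% with DMSO (adjusted p = 3.2e-16). Its relative STAU2 had 9.28% and 6.76% with STM3675 against 42.3% and 35.7% with DMSO (adjusted p = 3.5e-07). The 2 genes that did not pass were at similar low levels in both groups. PRKRA, the PKR activator PACT, had 13.8% and 11.4% with STM3675 and 5.96% and 13.9% with DMSO (adjusted p = 0.40), and without DMSO replicate 2 it was called higher by 6.02 percentage points. DHX9, a helicase that unwinds dsRNA, had 13.1% and 13.4% with STM3675 and 13.9% and 19.0% with DMSO (adjusted p = 0.47).

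Among adapters and ubiquitin ligases 5 of 6 fell, and their median gene was at 10.3% with STM3675 and 54.99% with DMSO. TICAM1, the TLR3 adapter, had 10.7% and 9.86% with STM3675 against 78.2% and 73.8% with DMSO over 3 sites (adjusted p = 5.5e-12). TRAF3 had 12.6% and 12.03% with STM3675 against 68.7% and 68.2% with DMSO over 13 sites (adjusted p = 3e-16). RNF135, a ligase of RIG-I, had 10.3% and 10.7% with STM3675 against 58.5% and 55.0% with DMSO (adjusted p = 2.6e-15). These 3 genes thus ended near 10% to 13% with STM3675, as did less methylated ones. MAVS, the adapter on mitochondria, had 10.7% and 9.98% with STM3675 against 50.8% and 55.6% with DMSO over 33 sites, of which 19 fell (adjusted p = 2.5e-17). TRIM25, a ligase linked to RIG-I, had 10.3% and 9.86% with STM3675 against 46.0% and 51.9% with DMSO (adjusted p = 2.4e-14). TRAF6 had 1 site of 20 to 81 reads, at 11.1% and 5.26% with STM3675 and 12% and 30.0% with DMSO (adjusted p = 0.15). It was called lower without DMSO replicate 1, by 21.8 percentage points at the same site. It was also called lower without DMSO replicate 2, by 47.3 points over 3 sites, and at a minimum of 10 reads, by 44.2 points over 5 sites, so the last 2 values include sites that the others do not.

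Of the kinases and interferon regulatory factors 1 of 3 fell, and their median gene was at 15.9% with STM3675 and 32.1% with DMSO. IRF3 had 15.0% and 16.8% with STM3675 against 30.3% and 33.8% with DMSO over 7 sites (adjusted p = 3.9e-06). IRF7 rested on 1 site of 33 to 46 reads, at 19.6% and 15.2% with STM3675 and 34.1% and 35.7% with DMSO (adjusted p = 0.071), and TBK1 on 1 site, at 6.33% and 4.76% with STM3675 and 17.0% and 10.9% with DMSO (adjusted p = 0.11). In IRF7 and TBK1 the groups did not overlap although the test was not passed, and limma on log2 odds called both.

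**Figure D1:**
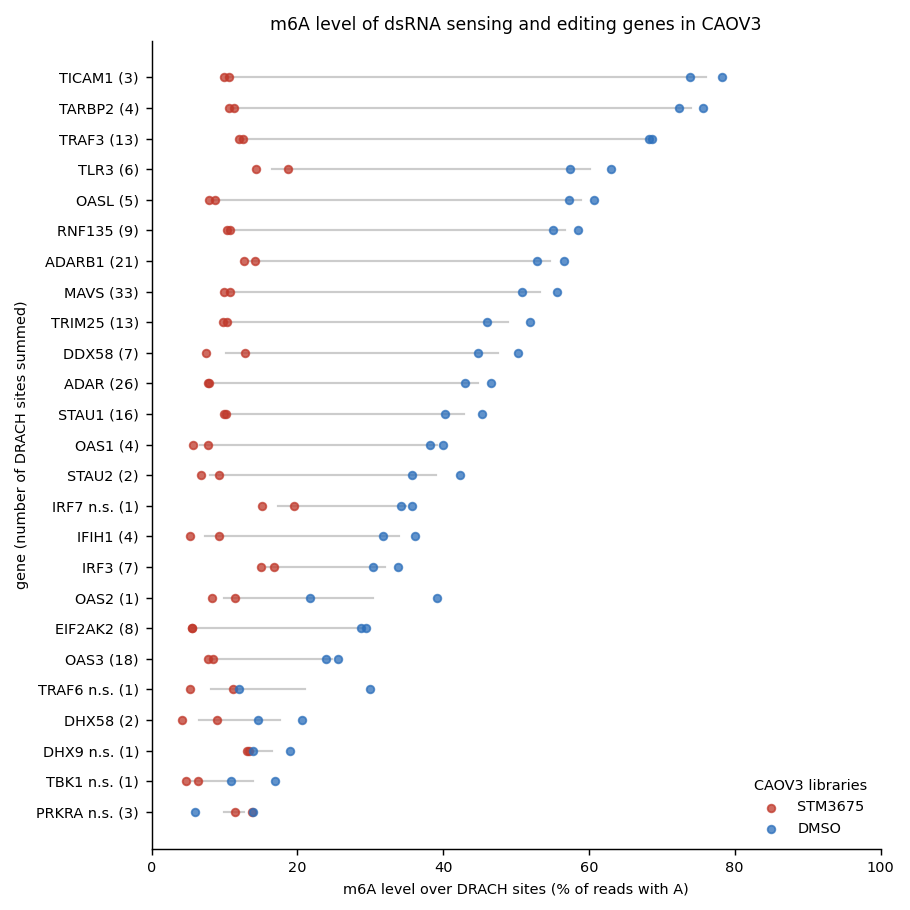
m6A level of each gene in CAOV3, as the percentage of A among reads summed over its tested DRACH sites; red points are the 2 STM3675 libraries, blue points the 2 DMSO libraries, and grey lines join the group means. Genes run from TICAM1 (76.0% with DMSO) to PRKRA (9.91%), and n.s. marks the 5 genes that did not pass the test.

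Levels with STM3675, which include unconverted adenosine, were highest at the sites most methylated in the other lines. Among the 59 tested DRACH sites at 50% or more in the other 5 lines, all 59 fell, where 99.8% of all such sites fell. The 16 sites at 90% or more there averaged 22.9% with STM3675 and 95.8% with DMSO in CAOV3, and the 20 sites at 50% to 75% averaged 10.1% with STM3675 and 69.1% with DMSO. The 56 sites at 25% to 50% averaged 8.47% with STM3675 and 42.8% with DMSO. In the DMSO libraries 73 of the 209 sites averaged 50% or more and 22 averaged 90% or more, while with STM3675 0 of the 209 reached 50% and 8 reached 25%. Of the sites whose letters are given above, TRIM25 was at 16.3% and 15.9% with STM3675 against 99.3% and 98.1% with DMSO (adjusted p = 5.5e-96). OASL was at 12.5% and 12.2% with STM3675 against 94.6% and 95.1% with DMSO (adjusted p = 6.1e-27).

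The sites that kept the most methylation, relative to DMSO, among the 59 lay in ADARB1, TRAF3, STAU1 and TLR3. At 45176192 on chromosome 21 in internal exon 4 of ADARB1 (ggAct), levels were 43.6% and 46.3% with STM3675 against 83.8% and 90% with DMSO, a ratio of 0.517 (adjusted p = 4.2e-07). The TRAF3 site shown above was at 44.7% and 43.3% with STM3675 against 97.1% and 95.7% with DMSO, a ratio of 0.457, on 23 to 38 reads (adjusted p = 5.7e-07). The STAU1 site was at 36.9% and 34.8% with STM3675 against 100% and 99.5% with DMSO, on 205 to 363 reads (adjusted p = 2e-81). The median ratio over the 59 sites was 0.168, and these sites lie above it by choice, since they were picked for the highest ratios. The TLR3 site was at 30.4% and 39.7% with STM3675 against 100% and 96.6% with DMSO (adjusted p = 7.2e-22). A further ADARB1 site of the same exon, 45176439 (ggAct), was at 25.8% and 31.1% with STM3675 against 80.4% and 89.1% with DMSO (adjusted p = 3.3e-10).

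Outside DRACH, MAVS, TRAF3 and TRIM25 fell over their summed sites, 3 of 24 genes where 27.5% of all genes fell. TRAF3 was at 9.97% ± 1.78 with STM3675 and 27.6% ± 1.03 with DMSO (SD, n = 2 each), and TRIM25 at 8.03% with STM3675 and 20.2% with DMSO. In TRAF3 and in TRIM25 1 site outside DRACH was above 50% in the other lines. The TRAF3 site at 102905423 (ttAct) had 6.74% and 14.0% with STM3675 against 67.6% and 69.2% with DMSO, and the TRIM25 site at 56892103 (atAct) had 5.19% and 6.36% with STM3675 against 39.5% and 67.4% with DMSO. Of all member sites 2 were higher with STM3675, where 0.309% of all sites were. They were 3864573 of MAVS (ccAac), at 10.6% and 19.4% with STM3675 and 3.23% and 0% with DMSO (adjusted p = 0.039), and 56892062 of TRIM25 (ggAtc), at 20.0% and 11.4% with STM3675 and 0% and 2.86% with DMSO (adjusted p = 0.0074). Both lie outside DRACH, rest on 31 to 105 reads and lost their call without any 1 of the 4 libraries.

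Most tested DRACH sites of these genes, 140 of 209, lay in last exons, and 103 of the 140 fell, where 81.7% of all last-exon DRACH sites fell. In internal exons 39 of 65 fell, where 56.6% of all did, and in first exons 2 of 4, where 55.5% of all did. Within last exons the level in DMSO was highest near the exon start. The 46 sites in the first 500 bases averaged 10.96% with STM3675 and 55.4% with DMSO, and 39 of the 46 fell. The 52 sites 2000 or more bases in averaged 10.4% with STM3675 and 40.8% with DMSO, and 30 of the 52 fell. MAVS held more of these 52 sites than any other gene. Shares of all last-exon sites by distance are not given here. The last exon of MAVS, 10436 bases long, held methylation at its start and in a cluster near its end. Of 9 sites in its first 1530 bases 8 fell, led by 3866270 with 17.2% with STM3675 and 91.9% with DMSO. The 7 sites tested between 2229 and 7589 bases were at 6.79% to 13.8% with STM3675 and 8.06% to 28.8% with DMSO, and 0 of the 7 passed. From 8054 to 8294 bases in, the 5 highest sites were at 80.6% to 97.4% with DMSO and at 13.0% to 31.3% with STM3675. All 5 fell, but they were picked by their DMSO level, which the test also uses. Lower sites lay among them. Those at 8167 and 8262 bases, at 24.5% and 22.5% with DMSO, did not pass, and that at 8192 bases, at 23.0% with DMSO, fell.

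**Figure D2:**
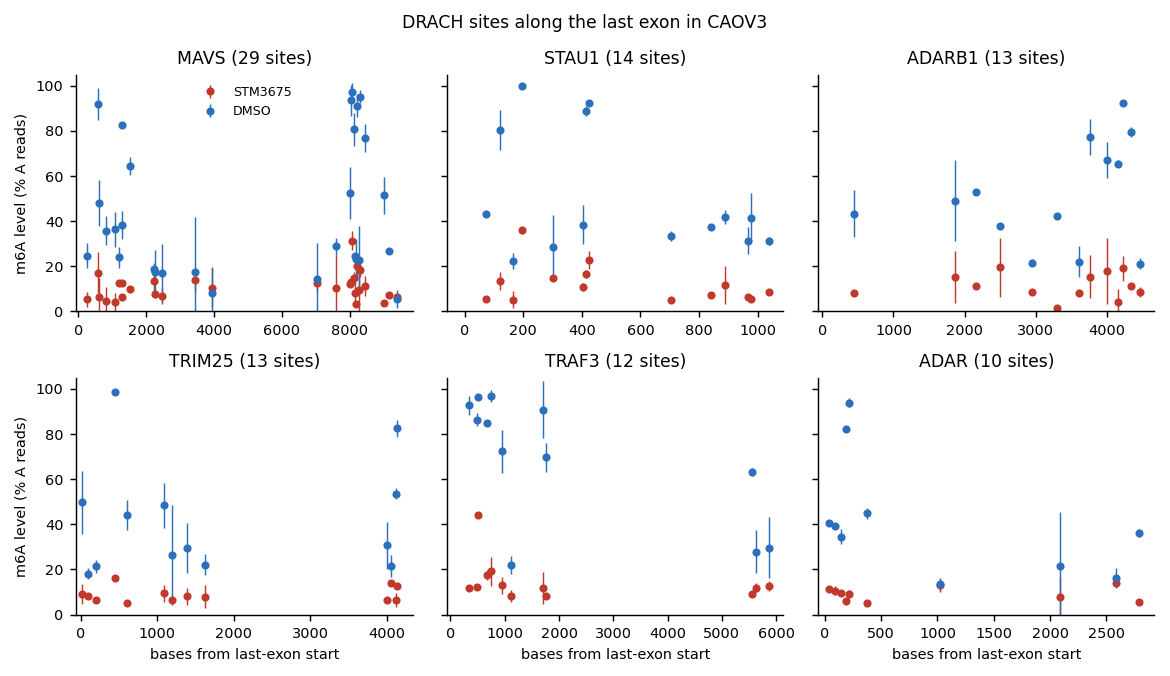
m6A level of each tested DRACH site along the last exon, in bases from the exon start, for the 6 genes with the most such sites; points are means of the 2 CAOV3 libraries with STM3675 (red) or DMSO (blue), and bars are SD. In MAVS the blue points at 80.6% or more stand at 587 and 1302 bases and again between 8054 and 8294 bases, and the red points of these genes stay at or under 44.0%.

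Genes of the same pathways outside the named set were read beside these. Of 16 further dsRNA-binding proteins tested 15 fell, led by DHX36, a helicase, with 9.43% and 11.2% with STM3675 against 73.9% and 76.5% with DMSO (adjusted p = 1.9e-17). The smallest changes there were in STRBP, which fell by 16.3 percentage points, and ZFR, with 2.94% and 12.1% with STM3675 and 10.8% and 8.33% with DMSO (adjusted p = 0.75). Of 21 further genes of MAVS and TLR3 signalling 18 fell, led by RIPK3, with 7.02% and 0% with STM3675 against 91.7% and 85.7% with DMSO at 1 site (adjusted p = 3.4e-07), and IKBKB (adjusted p = 2.3e-12). RNF5 and UNC93B1 did not pass. Of 19 further interferon response genes 17 fell, led by IFIT3, with 10.3% and 10.8% with STM3675 against 69.8% and 66.1% with DMSO (adjusted p = 1.3e-17), and IFIT2 (adjusted p = 5.3e-15). USP18, with 10.8% and 16.5% with STM3675 and 13.7% and 17.6% with DMSO, did not pass (adjusted p = 0.5). These shares, too, stand beside the 91.1% of all genes that fell.

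Read coverage of the same genes was compared next. Coverage is the number of reads with A or G summed over a gene's listed sites. It was scaled to CPM with library sizes adjusted by edgeR's TMM factors, and tested with edgeR. It stands in for transcript level only in part, since a read over several sites counts at each of them. It is also relative, so a change in RNA per cell, or in the number of cells that express a gene, cannot be told apart. Of 26 genes tested 15 rose, where 27% of all genes rose, and 3 fell, where 25.7% of all genes fell. Since the genes were chosen with earlier results of these data known, these counts describe them and do not test for an excess. Rises made up 51.2% of all called genes, and the median log2 fold change of all genes was -0.01. With total reads as library size in place of edgeR's TMM factors that share was 34.8%, that median was -0.15, and 14 dsRNA genes rose and 3 fell. At the most covered site of each gene the share was 60.2%, and 10 dsRNA genes rose and 2 fell.

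Coverage of marker genes of other cell types differed between the same libraries. The leukocyte markers CD68 and CD14 both rose, with a summed coverage of 90.2 and 91.9 CPM with STM3675 against 57.1 and 65.4 CPM with DMSO, while PTPRC, CD3E and CD79A had no listed site. Of 3 endothelial markers tested 1 rose, CDH5, and their sum was 3.83 and 3.78 CPM with STM3675 against 2.68 and 1.93 CPM with DMSO. Of the fibroblast markers COL1A1 was tested and fell, with 40.1 and 44.8 CPM with STM3675 against 94.1 and 78.7 CPM with DMSO (adjusted p = 2.7e-05). Of 5 epithelial markers CDH1 rose (1.85-fold, adjusted p = 3.6e-05) and KRT18 fell (0.651-fold, adjusted p = 1e-04), of 3 Muellerian or ovarian markers SOX17 and MSLN rose, and of 2 squamous markers KRT5 fell. Summed, the epithelial markers had 1074 and 1033 CPM with STM3675 and 983 and 991 CPM with DMSO, the Muellerian or ovarian markers 378 and 405 CPM with STM3675 and 346 and 365 CPM with DMSO, and the squamous markers 29.0 and 28.3 CPM with STM3675 and 35.4 and 31.5 CPM with DMSO. Their part in the coverage of the dsRNA genes was not tested.

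Of PKR and the synthetases 4 of 5 rose, and OAS2 had the highest fold change of the 26 genes. OAS2 had 144 and 133 CPM with STM3675 against 20.3 and 21.0 CPM with DMSO, a 6.71-fold rise (log2 fold change 2.75 ± 0.06 SE, adjusted p = 1.3e-07). OAS1 had 101.2 and 95.6 CPM with STM3675 against 21.1 and 25.8 CPM with DMSO, 4.20-fold (adjusted p = 5e-07). OAS3 had 570 and 504 CPM with STM3675 against 172 and 168 CPM with DMSO, 3.15-fold (adjusted p = 4.4e-07). In these 3 genes the STM3675 libraries lay far above the DMSO libraries, with no overlap. OASL had 171 and 174 CPM with STM3675 against 65.7 and 62.2 CPM with DMSO, 2.70-fold (adjusted p = 5.4e-07). EIF2AK2 had 206 and 219 CPM with STM3675 and 220 and 152 CPM with DMSO, and its groups overlapped (adjusted p = 0.26). It was called higher without DMSO replicate 1 (log2 fold change 0.49), and was at -0.05 without DMSO replicate 2.

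All 4 sensors tested rose. DDX58 had 160 and 159 CPM with STM3675 against 69.0 and 58.0 CPM with DMSO, 2.52-fold (adjusted p = 2.4e-06). IFIH1 had 65.1 and 65.1 CPM with STM3675 against 31.9 and 30.0 CPM with DMSO, 2.10-fold (adjusted p = 7.1e-06). TLR3 had 53.8 and 52.8 CPM with STM3675 against 26.5 and 26.3 CPM with DMSO, 2.02-fold (adjusted p = 1.3e-05). In these genes the libraries of a group lay close together and the groups did not overlap. DHX58 had 17.4 and 14.4 CPM with STM3675 and 9.20 and 13.5 CPM with DMSO, 1.40-fold (adjusted p = 0.049). The call of DHX58 was lost under DESeq2 (log2 fold change 0.49), with total reads as library size (0.35), at the most covered site (0.37), over sites outside DRACH (0.43) and without DMSO replicate 1 (0.25), STM3675 replicate 1 (0.34) or STM3675 replicate 2 (0.62). NLRP1, a sensor of long dsRNA in human cells, had 1 and 4 reads with STM3675 and 4 and 0 with DMSO, too few to test.

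Among adapters and ligases 5 of 6 rose. TICAM1 had 102 and 102 CPM with STM3675 against 25.1 and 23.2 CPM with DMSO, 4.22-fold (adjusted p = 2.4e-07). TRAF6 had 76.1 and 72.3 CPM with STM3675 against 34.6 and 25.4 CPM with DMSO, 2.47-fold (adjusted p = 2.2e-05). TRIM25 had 207 and 204 CPM with STM3675 against 103 and 108 CPM with DMSO, 1.95-fold (adjusted p = 3.7e-06). TRAF3 (1.56-fold, adjusted p = 0.00044) and RNF135 (1.45-fold, adjusted p = 0.00034) rose by less. MAVS did not pass, with 281 and 272 CPM with STM3675 and 276 and 256 CPM with DMSO (adjusted p = 0.52), and its groups overlapped. Of the kinases and regulatory factors IKBKE rose, with 14.3 and 13.8 CPM with STM3675 against 4.22 and 5.78 CPM with DMSO, 2.81-fold (adjusted p = 9.6e-05). TBK1, IRF3 and IRF7 did not pass, with fold changes of 0.968, 1.02 and 0.993 (adjusted p = 0.65, 0.78 and 0.93).

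ADAR had 661 and 650 CPM with STM3675 against 434 and 377 CPM with DMSO, 1.62-fold (adjusted p = 6.6e-05). ADARB1 had 156 and 153 CPM with STM3675 and 158 and 144 CPM with DMSO (adjusted p = 0.79). The 2 editors were thus not alike in their calls, though the difference between them was not tested. Among the dsRNA-binding helpers 0 rose and 3 of 5 fell. PRKRA had 22.4 and 22.7 CPM with STM3675 against 34.9 and 32.8 CPM with DMSO, 0.666-fold (adjusted p = 0.001). STAU2 had 30.3 and 24.7 CPM with STM3675 against 38.8 and 36.3 CPM with DMSO, 0.733-fold (adjusted p = 0.0096). DHX9 had 28.0 and 28.3 CPM with STM3675 against 35.1 and 34.3 CPM with DMSO, 0.812-fold (adjusted p = 0.026). Without STM3675 replicate 2 STAU2 (log2 fold change -0.31) and DHX9 (-0.31) were no longer called and PRKRA was the 1 gene left. DHX9 was also lost without STM3675 replicate 1 (-0.29), under DESeq2 (-0.29) and over sites outside DRACH (-0.17), and STAU2 at the most covered site (-0.42). TARBP2 (1.01-fold) and STAU1 (1.06-fold) did not pass (adjusted p = 0.93 and 0.43). The fitted fold changes of ADARB1, IRF3, MAVS, STAU1 and TARBP2, none of them called, were under 1 with total reads as library size. Taking the most covered site of each gene in place of the sum, 5 of the 15 rises were no longer called: ADAR, DHX58, RNF135, TLR3 and TRAF3, with log2 fold changes of 0.44, 0.37, 0.40, 0.64 and 0.47.

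**Figure D3:**
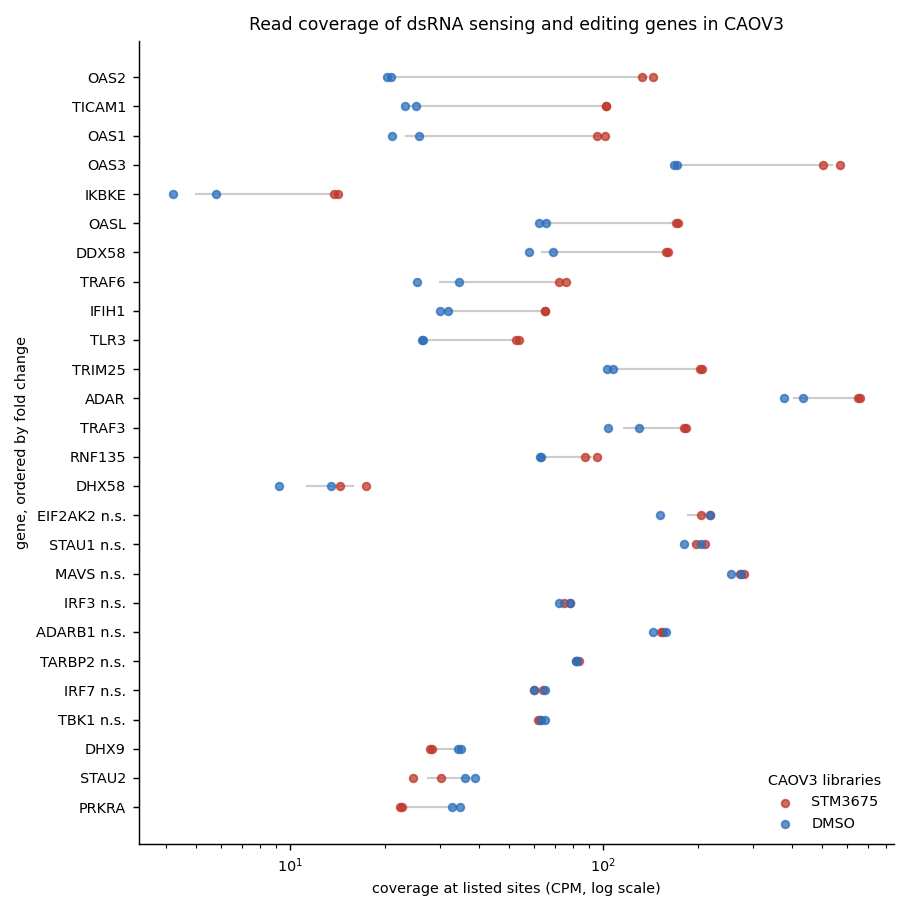
Coverage at listed sites of each gene in CAOV3 (CPM, log axis), with genes ordered by fold change from OAS2 (6.71-fold) at the top to PRKRA (0.666-fold) at the bottom; red points are the 2 STM3675 libraries, blue points the 2 DMSO libraries, and grey lines join the group means. The 8 genes marked n.s. did not pass the test.

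Interferon response genes outside the named set were read beside these, in a list also chosen with earlier results of these data known. Of 20 tested 16 rose and 1 fell, with a median log2 fold change of 0.61, against 0.59 for the dsRNA genes and -0.01 for all genes. IFI44L had 64.9 and 58.8 CPM with STM3675 against 12.1 and 13.4 CPM with DMSO, 4.85-fold (adjusted p = 4.5e-07), and IFIT3 had 321 and 326 CPM with STM3675 against 79.2 and 80.2 CPM with DMSO, 4.06-fold (adjusted p = 1.4e-07). TYK2, a kinase of the interferon receptor, fell to 147 and 150 CPM with STM3675, against 189 and 178 CPM with DMSO (adjusted p = 0.0054), and IFNAR1 did not pass. Of 24 further genes of MAVS and TLR3 signalling 10 rose and 5 fell, where 27% of all genes rose and 25.7% fell. TNFAIP3, an inhibitor of NF-kB, had 22.1 and 26.0 CPM with STM3675 against 5.26 and 5.06 CPM with DMSO, 4.65-fold (adjusted p = 2.7e-06), and CASP8 rose 1.79-fold, while CHUK and RNF5 fell. Of 17 further dsRNA-binding proteins 2 rose, SON (1.28-fold) and SUPV3L1 (1.23-fold), and 5 fell, among them ZFR (0.740-fold) and ILF2 (0.693-fold). The same shares of all genes stand beside the counts of each of these lists.

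Promoters were searched for the core of the interferon-stimulated response element, GAAANNGAAA, on both strands, because several of these genes rose together. The windows were those of RefSeq on GRCh38.p14, from 250 bases before to 50 after a gene's start, and 19 of the named genes had 29 windows. The motif was in 4 of the 29 windows (13.8%), 1 each of EIF2AK2, IFIH1, OAS3 and TLR3, in 3.57% of all 35116 windows, and in 18 of 29 windows (62.1%) of the other interferon response genes. DHX58, IRF3, IRF7, NLRP1, OAS2, OASL, RNF135, STAU2 and ZBP1 had no window. IFIH1 had 3 matches, of which 2 overlap, and OAS3 had 2. The 250 bases before the start are shown for IFIH1 (chr2:162318685-162318934, minus strand) and OAS3 (chr12:112938224-112938473, plus strand), from 5′ to 3′ of the gene with the matches in capitals.
IFIH1: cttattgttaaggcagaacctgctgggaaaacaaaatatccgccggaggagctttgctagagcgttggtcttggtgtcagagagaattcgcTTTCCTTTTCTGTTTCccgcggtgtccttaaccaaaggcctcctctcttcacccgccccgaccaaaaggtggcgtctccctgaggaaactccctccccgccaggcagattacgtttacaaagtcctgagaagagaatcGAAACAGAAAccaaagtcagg
OAS3: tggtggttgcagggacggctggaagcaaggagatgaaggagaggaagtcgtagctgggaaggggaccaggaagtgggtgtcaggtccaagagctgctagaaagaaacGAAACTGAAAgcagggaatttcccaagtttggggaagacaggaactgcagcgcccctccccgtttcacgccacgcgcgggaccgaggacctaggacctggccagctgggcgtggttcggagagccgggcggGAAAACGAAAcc
In IFIH1 a match lies at -21 to -12 bases from the start, and in OAS3 at -12 to -3. In EIF2AK2, whose coverage did not pass the test, a match lies across the start, from -6 to 4. A match is a description of these letters and was not tested as a site.

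Across the 25 genes with both measures, the m6A level in DMSO and the log2 fold change of coverage had a Spearman correlation of 0.28, and over all 10209 such genes 0.30. The measures share the DMSO libraries, and genes are not independent replicates. All these genes were also split by m6A level in DMSO into groups of 3403. Up to 35.8% m6A, 15.5% of all genes rose and 37.6% fell. In the middle group 30.5% rose and 23.6% fell, and from 52.5% upwards 43.8% rose and 17.8% fell. Of the dsRNA genes, 5 of 11 rose and 2 fell in the lowest group. In the middle group 4 of 6 rose and 1 fell, and in the highest 5 of 8 rose and 0 fell. Genes that rose were thus found in every group, such as OAS3 (24.7% m6A in DMSO, 3.15-fold) and TICAM1 (76.0%, 4.22-fold). TARBP2 with 74.0% had a fold change of 1.01.

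The same genes were then compared among the 6 lines kept in DMSO. Coverage in all 12 libraries left 95 member DRACH sites in 16 genes, and none in IFIH1, DDX58, TLR3, OAS1, OAS2 or OASL. The mean over the 95 sites was 47.8% ± 0.9949 in CAOV3, 43.4% ± 0.325 in A549, 42.1% in EFO21, 41.9% in COV644 and in SKOV3, and 39.5% in OE21 (SD, n = 2 each). Over all 38621 DRACH sites so covered, the mean was 48.4% in CAOV3, 44.7% in COV644, 44.1% in EFO21, 43.6% in A549, 43.2% in SKOV3 and 40.3% in OE21. CAOV3 was highest and OE21 lowest in both sets. Of the 95 sites 56 differed among lines, where 45.8% of all such sites did, and CAOV3 was the highest line at 46 of the 95. A site is listed once any DMSO library reached 25% with 20 reads, so a line through which a site was listed tends to be high there. Of the 95 sites 19 reached 25% in 1 line only, 6 of them in CAOV3, 6 in SKOV3, 5 in EFO21, 1 in A549 and 1 in COV644. Over the other 76 sites the mean was 55.8% in CAOV3, against 50.8% in A549, 50.5% in COV644, 48.9% in EFO21, 48.5% in SKOV3 and 47.6% in OE21, and CAOV3 was the highest line at 40 of the 76. Of those 76 sites 44 differed among lines. Shares of all sites are not given here for that set or for sites highest in CAOV3. These counts are thus not set against the transcriptome.

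Summed over DRACH sites, 11 of 16 genes differed among lines, where 58.4% of all genes did. STAU2 had the widest range among them, 42.3% and 35.7% in CAOV3 and 38.8% and 38.9% in COV644, with 13.7% and 19.0% in OE21 (adjusted p = 0.00032). TRAF3 had 66.8% and 68.5% in CAOV3, against 50.0% and 47.1% in OE21 (adjusted p = 0.00078). EIF2AK2 had 28.2% and 29.8% in CAOV3, against 14.3% and 15.7% in EFO21 (adjusted p = 1.1e-05). In these 3 genes the libraries of the highest and lowest lines did not overlap, but those lines were picked by these same values. Of the 5 sites of EIF2AK2 1 was listed through CAOV3 only, and so was 1 of the 7 sites of OAS3. OAS3 averaged 23.6% in CAOV3 and 10.2% in COV644 (adjusted p = 9.8e-06), and ADAR 47.2% in COV644 and 39.9% in SKOV3, the narrowest range of the genes that differed, at 7.29 percentage points (adjusted p = 0.00034). MAVS averaged 64.8% in CAOV3 and 51.4% in EFO21 (adjusted p = 0.017), and lost its call without CAOV3 replicate 2. TARBP2 was high in every line, from 64.6% in A549 to 76.0% in CAOV3 (adjusted p = 0.0038). STAU1, PRKRA, ADARB1 and IRF3 also differed, the last 2 at adjusted p = 0.027 and 0.048. IRF3 was lost without any 1 of 10 of the 12 libraries and ADARB1 without any 1 of 4, A549 replicate 1, COV644 replicate 2, EFO21 replicate 2 and SKOV3 replicate 1. TRIM25 (adjusted p = 0.097), RNF135 (0.11), DHX9 (0.077), TRAF6 (0.2) and TICAM1 (0.67) did not pass. Over sites that reached 25% in 2 or more lines 9 of 13 genes differed, and the share of all genes over such sites is not given here. IRF3 was no longer called there, and PRKRA, DHX9 and TRAF6 had no such site. Over 3 such sites EIF2AK2 averaged 32.9% in CAOV3 and 15.6% in EFO21, and over 3 OAS3 averaged 26.5% in CAOV3 and 14.3% in COV644, and both genes still differed among lines and stood apart in CAOV3 (adjusted p = 1.8e-05 for EIF2AK2 and 0.025 for OAS3). MAVS averaged 66.3% in CAOV3 and 66.4% in COV644 there.

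Set against the mean of the other 5 lines, 27 of 96 pairs of gene and line differed, where 20.6% of all pairs did. CAOV3 stood apart in 9 of 16 genes, higher in all 9, where 43.8% of all genes were apart in CAOV3. Over sites that reached 25% in 2 or more lines CAOV3 stood apart in 9 of 13 genes, and 21 of 78 pairs differed. The shares of all genes and pairs over such sites are not given here, and those above belong to all sites. The others, over all 95 sites, were COV644 with 5, of which 3 were higher and 2 lower (18.2% of all genes), EFO21 with 5 (10.4%), OE21 with 4, all lower (31%), A549 with 2 (11%) and SKOV3 with 2 (9.44%). These calls depend on the spread taken for a library. With limma on log2 odds 11 sites and 8 genes differed and 17 pairs were apart, and ADAR, ADARB1 and MAVS lost their call. With limma on levels from which each library's level outside DRACH had been taken off, 8 sites, 6 genes and 14 pairs were left. ADARB1, IRF3, PRKRA, STAU1 and TARBP2 lost their call there. Both the levels and the test differ from the main model in that setting, so the part of the correction alone cannot be read from it. COV644 and OE21, with the low levels outside DRACH, were the 2 lowest lines for OAS3, PRKRA, IRF3 and TRAF3. They were also the 2 lowest lines for DHX9 and TRAF6, which did not pass. In the other genes they were not the 2 lowest together. COV644 was the highest line for ADAR, and OE21 was not among the lowest 2 there. The part of those levels in the results was not tested beyond that correction.

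The range between line means reached 34.7 percentage points at single sites, where it was 22.6 over gene sums. Site 3867213 of MAVS (chromosome 20, last exon 7, tgAcc) had 67.5% and 61.6% in CAOV3, against 31.7% and 27.9% in EFO21 (adjusted p = 2.2e-09). Site 53506010 of TARBP2 (chromosome 12, ggAct) had 64.5% and 57.2% in CAOV3, against 30.7% and 33.3% in SKOV3 (adjusted p = 0.00028). Site 102906979 of TRAF3 (agAct) had 65.2% and 74.2% in CAOV3, against 38.4% and 45.5% in OE21 (adjusted p = 9.7e-08). CAOV3 was the highest line at these 3 sites, but not at 154585008 of ADAR (chromosome 1, gaAca), which had 43.9% and 47.5% in SKOV3 and 46.2% and 39.5% in A549, against 19.1% and 20.5% in OE21 (adjusted p = 4.1e-23). Replicates at the ADAR site lay furthest apart in EFO21, with 22.9% and 36.1%, followed by A549. STAU2, TRIM25, ADARB1 and EIF2AK2 had a site each with a range of 23.0 to 25.0 percentage points between line means. With limma on log2 odds the sites of TARBP2, TRIM25, ADARB1 and EIF2AK2 were not called. With limma on levels corrected for background those of TRAF3, ADAR, TRIM25, ADARB1 and EIF2AK2 were not called.

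**Figure D4:**
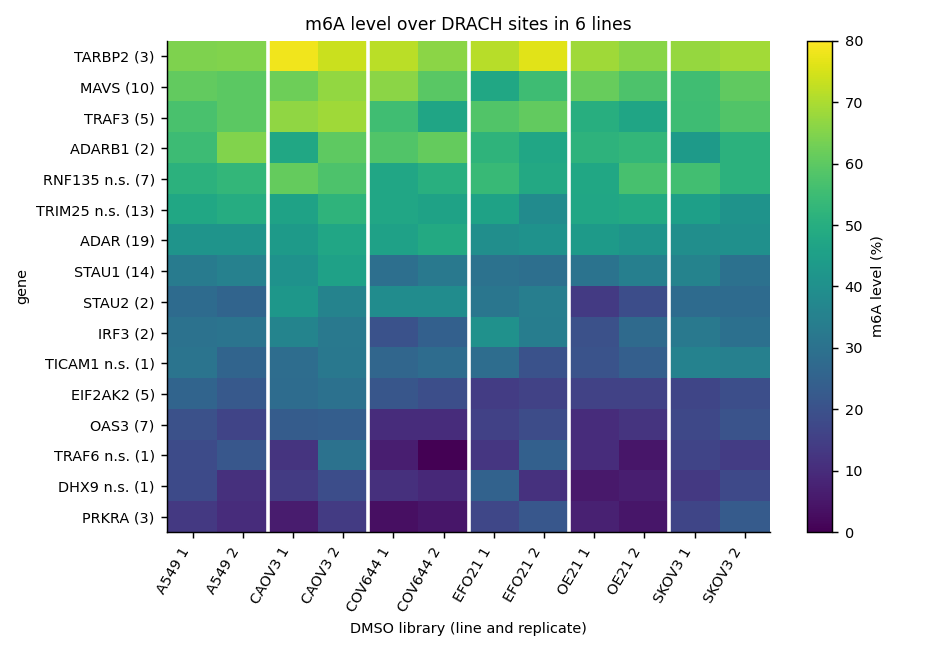
m6A level over DRACH sites covered in all 12 DMSO libraries, for 16 genes (rows, with the number of sites) in 6 lines (2 columns each); the colour gives the percentage of A. Rows run from the most to the least methylated gene, the CAOV3 columns are the brightest in most rows, and n.s. marks the 5 genes that did not pass the test.

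Coverage of the same genes was compared among the 6 lines as well. It differed among lines for 27 of 27 genes, where 99.1% of all genes did, so the count says little about these genes. The highest line had a median of 22.7 times the coverage of the lowest in the 5 sensors and 24.6 times in PKR and the synthetases, against 5.10 times over the 27 genes and 4.46 over all genes. OASL averaged 319 CPM ± 14.1 in OE21, 62.1 in CAOV3, 60.02 in COV644 and 46.7 in EFO21, against 2.14 in A549 and 1.24 ± 0.364 in SKOV3 (SD, n = 2 each). OAS2 averaged 135 CPM in OE21, 84.6 in COV644, 68.1 in EFO21, 27.1 in SKOV3 and 20.1 in CAOV3, and had 9 and 0 reads in the A549 libraries. OAS1 averaged 103 CPM in COV644, 55.5 in OE21, 34.2 in EFO21, 27.5 in A549, 22.8 in CAOV3 and 4.19 in SKOV3. No 1 line was thus lowest for the whole family. OAS3 kept to a narrower range, from 85.6 CPM in EFO21 to 435 in OE21.

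IFIH1 averaged 84.9 CPM in COV644, 43.1 in EFO21, 30.6 in OE21, 30.1 in CAOV3, 20.4 in SKOV3 and 3.96 in A549. TLR3 averaged 82.8 CPM in COV644 and 25.7 in CAOV3, against 2.14 in A549. DDX58 averaged 124 CPM in COV644 and 61.7 in CAOV3, with 22.3 in A549 and 21.6 in SKOV3. DHX58 averaged 19.9 CPM in OE21 and 0.879 in A549. COV644 was thus the highest line for 3 of these 4 sensors and A549 the lowest for 3. In IFIH1 the CAOV3 and OE21 means, and in DDX58 the A549 and SKOV3 means, differed by less than the SD of the replicates. NLRP1 averaged 86.1 CPM in EFO21 and 34.2 in COV644, with 6.15 in SKOV3 and 2.53 in OE21, and had 7 and 0 reads in A549 and 4 and 0 in CAOV3.

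ADARB1 averaged 1182 CPM ± 46.8 in COV644 and 165 in EFO21, 147 in CAOV3, 93.2 in SKOV3, 48.1 in OE21 and 31.7 in A549. ADAR, by contrast, ran from 302 CPM in SKOV3 to 530 in OE21, and EIF2AK2 from 119 in A549 to 235 in COV644. IRF7 averaged 60.8 CPM in CAOV3, 32.9 in COV644 and 11.9 to 13.8 in EFO21, OE21 and SKOV3, against 3.44 in A549. TICAM1 averaged 140 CPM in COV644 and 14.1 in EFO21, and MAVS 667 in SKOV3 and 132 in EFO21. TRAF6 averaged 149 CPM in SKOV3 and 29.2 in CAOV3, and IKBKE 26.2 in EFO21 and 4.85 in CAOV3. The remaining 10 genes had at most 5.28 times as much coverage in their highest line as in their lowest, the most in STAU2 and the least in DHX9 (1.45 times).

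**Figure D5:**
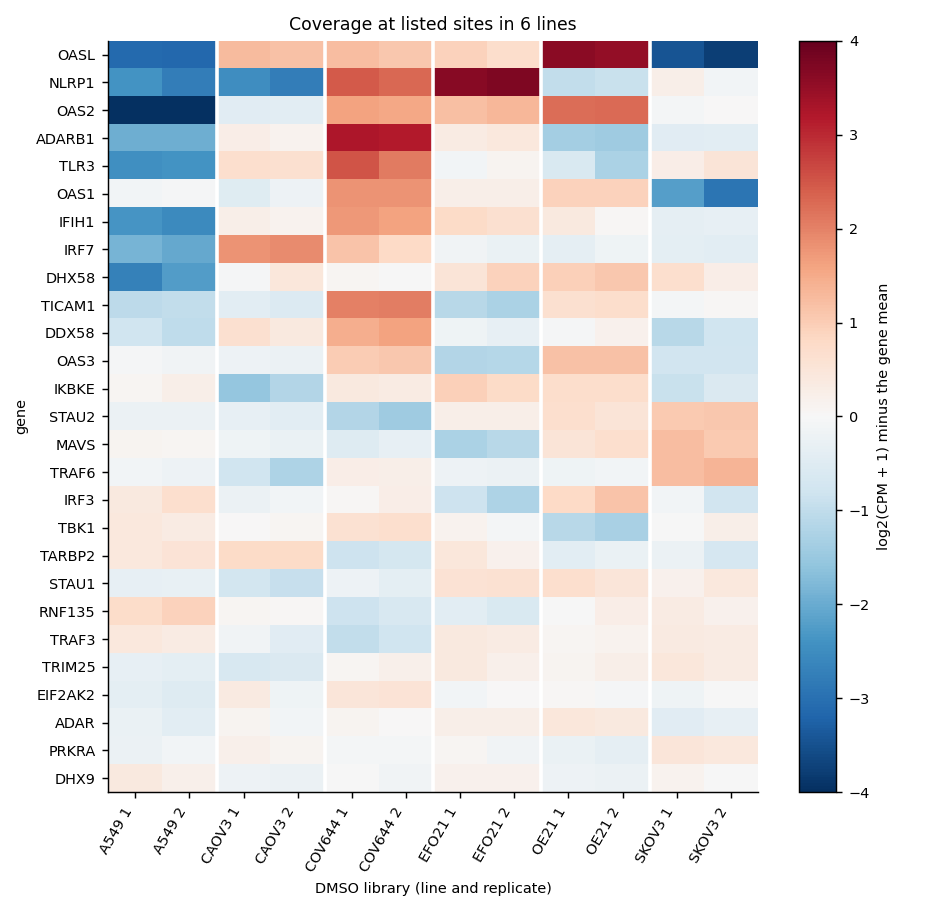
Coverage at listed sites in the 12 DMSO libraries, as log2(CPM + 1) minus the gene's mean over libraries, for 27 genes from OASL at the top to DHX9 at the bottom, ordered by their spread. Red is above and blue below the gene's mean; A549 is blue for OASL, NLRP1, OAS2, TLR3, IFIH1 and DHX58, and COV644 is red for ADARB1, TLR3, OAS1, IFIH1, TICAM1 and DDX58.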

How the data were processed

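The members and gene lists were chosen with earlier results of these data known. Per the submitters' processing notes, the authors trimmed reads with cutadapt and aligned them with STAR to GRCh38, both without a version; how sites were called is not stated in the labels. The deposited table gives, for each site and library, the count of reads with A or G and the fraction of them with A. Counts of A were taken as the product of the authors' deposited count and fraction, which was whole within 1e-06 at every site. A further 8 columns, which hold means and maxima of library pairs, were not used. Only sites with 20 reads and a fraction of 0.25 in a DMSO library are listed, which was checked, and genes and exons are those of the table.

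Site and gene levels were tested with a quasi-binomial logistic model of A and G counts, with dispersions moderated by limma 3.58.1 (squeezeVar) and floored at 1, in R 4.3.3 with the package data.table, version 1.17.8. Sites needed 20 reads in every library compared. Coverage was tested with edgeR 4.0.16 (quasi-likelihood, TMM, filterByExpr). All p-values were adjusted by Benjamini-Hochberg over all features tested, with a threshold of 0.05; a p called adjusted is from these models. The scripts were tested on simulated data. Figures and promoter searches used Python 3.11.15, pandas 2.3.3 and matplotlib 3.10.9.

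Named were all members, each member's most methylated tested DRACH site in the other 5 lines, sites higher with STM3675, up to 5 sites with the highest STM3675 to DMSO ratio, up to 8 sites with the widest range among lines, at most 1 per gene, and in other lists the 2 genes with the largest and the 2 with the smallest difference, of which some are not reported here. Sites outside DRACH above 50% were chosen after their values were seen. Alternatives for levels were read minimums of 10 and 50, limma on log2 odds (0.5 reads added) and limma on background-corrected levels. Those for coverage were DESeq2 1.42.0, no low-count filter, total-read scaling and the most covered site. A replicate block and leaving out each library were run for both. Coverage over sites outside DRACH, the lines compared over sites at 25% in 2 or more lines, and the promoter search were added after seeing the data. Reads are not molecules counted by identifiers, and spike-ins were not analysed here.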

Additional observations from a re-analysis of the deposited data

How the results depend on the processing

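No result changed direction in a called value under the alternatives run. At a minimum of 50 reads 86 member sites fell and 1 rose with STM3675, and 33 sites differed among lines. With limma on log2 odds 1 site rose, 11 sites differed among lines and 17 pairs of gene and line were apart. With limma on background-corrected levels 8 sites and 6 genes differed and 14 pairs were apart. The cause was not tested. The difference in mean DRACH level, STM3675 minus DMSO, was -33.01 percentage points, and it was -41.82 at 50 reads, -31.27 at 10 reads, -37.05 with reads pooled over sites and -35.96 over the sites with 25% in a DMSO library of another line, which hold different sites or weights. Leaving out each library in turn gave 0 to 0 sites that rose, and 1 to 3 genes whose coverage fell, the 1 without STM3675 replicate 2. For m6A, replicate numbers did not pair the libraries: correlations of same-numbered deviations ran from -0.0232 to 0.0204 over 21 pairs of groups. For coverage they ran from -0.6986 to 0.7278, so libraries of some lines deviated together and others in opposite directions. Between CAOV3 with STM3675 and with DMSO the coverage correlation was -9e-04. With the replicate block 165 sites fell and 1 rose, 20 genes fell, 55 sites and 11 genes differed among lines, 25 pairs were apart, coverage rose in 15 genes and fell in 3, and it differed among lines in 27. With a median of 16 to 32 reads per site, small changes at weak sites are not detectable at this depth.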
